A study of Bos taurus with 30 samples.

Results

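The miR-199 and miR-214 miRNAs were described in the arcuate nucleus (ARC), the part of the hypothalamus that reads cues on metabolic status, of 30 bull calves. Members were the rows of the deposited miRNA table with the stem miR-199a, miR-199b or miR-214, which gave 4 of 1030 mature miRNAs, listed as bta-miR-199a-3p, bta-miR-199a-5p, bta-miR-199b and bta-miR-214 and written here without the species prefix. All calves were Holstein-Friesian bulls fed 1 of 2 diets from 2 to 12 weeks of age, and ARC tissue was collected at 12 weeks. The HI group (15 calves) was offered 1.5 kg of milk replacer in 10 litres a day with free access to concentrate. The MOD group (15 calves) was offered 0.5 kg of milk replacer in 4 litres a day and 0.5 kg of concentrate. Each calf gave 1 small RNA library of the dissected tissue, which holds every cell type of the dissection. The members were chosen by name, but with earlier results of these data known, so their levels and their variation between calves are given as a description without a test.

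A miRNA is cut from a hairpin precursor, each strand of which can give a mature miRNA of about the same length, the 5p arm and the 3p arm. The miR-199 and miR-214 genes lie within the genes of the dynamins, proteins that pinch off membrane vesicles, and are best known from mesenchymal cells such as fibroblasts, pericytes and smooth muscle cells. In mammals, a miR-199a gene and the miR-214 gene are made as 1 long transcript from the strand opposite to DNM3, under control of the mesenchymal transcription factor TWIST1. Pericytes wrap the capillaries of the brain, and fibroblasts line its larger vessels and its meninges, and both also form part of the stroma of the pituitary.

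RefSeq lists MIR214 (gene identifier 791039) and MIR199A-1 (790998) as neighbours within DNM3 in the bovine ARS-UCD2.0 assembly. In the same assembly MIR199A-2 (100313016) lies within DNM2 and MIR199B (791035) within DNM1. Reads had been aligned to another assembly, ARS-UCD1.2, and no positions are printed for that reason. The deposited table does not say from which precursor the reads of miR-199a-3p and miR-199a-5p came, and it lists miR-199b and miR-214 with no arm. A further row, miR-199c, whose gene MIR199C (100313151) RefSeq places within NUP88, held the same number of reads as miR-199a-3p in 24 of the 30 libraries and differed by 1 read in the other 6. It was therefore taken as the same reads listed under another name, and was not counted as a member.

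Values are in CPM, reads scaled to a common library size, and each library held between 6291376 and 21083250 reads on miRNAs. Of the 30 libraries, 9 stood apart by their epithelial and pituitary miRNAs. In these 9 (5 HI and 4 MOD) miR-200a, a miRNA of epithelial cells, lay between 62.9 and 1240.5 CPM, and in the other 21 (10 HI and 11 MOD) it lay between 0.558 and 10.7 CPM. This division was made on miR-200a after the values had been seen, and the diet results of the members, their ratios and the marker lists are given over all calves and over the other 21.

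The member with the highest level, miR-199a-3p, had a median of 113 CPM over all calves, and 189 of the 476 miRNAs tested had a higher median. In HI calves it ranged from 57.4 to 1419.7 CPM with a median of 109 CPM (519 to 8243 reads), and in MOD calves from 62.0 to 1113 CPM with a median of 126 CPM (622 to 17334 reads). The range of each diet nearly covered that of the other, and the highest and the lowest calf of all were both on the HI diet. The other arm of the same name, miR-199a-5p, ranged from 9.06 to 272 CPM in HI with a median of 17.6 CPM, and from 8.13 to 218 CPM in MOD with a median of 27.9 CPM. It rested on 82 to 3484 reads.

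The row of miR-199b, which bears the name of the gene within DNM1, ranged from 18.5 to 412 CPM in HI with a median of 33.0 CPM, and from 21.5 to 326 CPM in MOD with a median of 31.8 CPM. The member with the lowest level was miR-214, at 1.33 to 52.4 CPM in HI with a median of 3.71 CPM, and at 1.35 to 43.7 CPM in MOD with a median of 5.63 CPM. Its lowest library held 12 reads, so the low end of its range is known less precisely than that of the other members. The order by median, miR-199a-3p, miR-199b, miR-199a-5p and miR-214, was the same in both diets. Within single libraries miR-199a-3p always stood above the other members and miR-214 always below them, whereas the ratio of miR-199b to miR-199a-5p went from 0.916 to 3.18 and these neighbours in the order changed places.

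**Figure D1:**
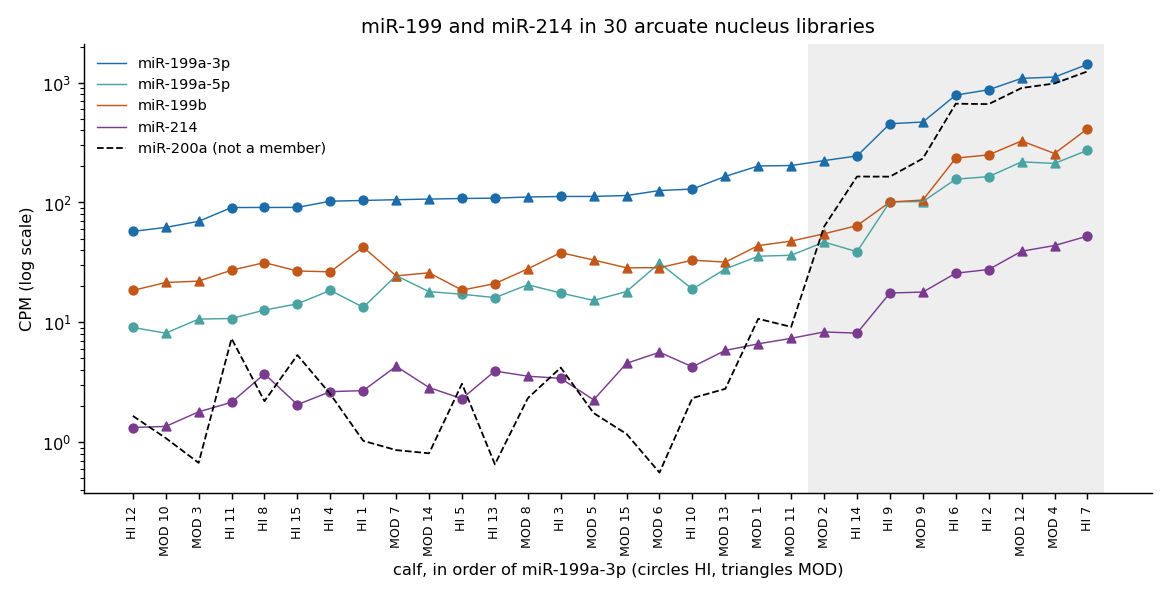
CPM of the 4 members (coloured lines) and of miR-200a (dashed line) on a log scale in each calf, with calves in order of miR-199a-3p, circles for HI and triangles for MOD, and the 9 libraries high in miR-200a shaded. The 9 shaded calves hold the highest values of miR-199a-3p, from 224 to 1419.7 CPM.

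The spread between calves was wide for every member. The highest calf stood at 24.8 times the lowest for miR-199a-3p, 33.5 times for miR-199a-5p, 22.3 times for miR-199b and 39.5 times for miR-214. The SD of the log2 values over the 30 calves lay between 1.33 and 1.49 for the members, against a median of 0.372 for all 476 miRNAs tested. Outside the family, 14 miRNAs varied more than miR-199a-3p, and 7 of these were from the list of pituitary miRNAs. The 7 included miR-375, a miRNA of endocrine cells, and miR-182 and miR-183, a pair cut from 1 cluster. Also among the 14 were miR-34b, miR-34c, miR-449a and miR-449c, from the list of choroid plexus and ependyma miRNAs.

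The calves with high members were those with high miR-200a. In the 9 libraries high in miR-200a, miR-199a-3p ranged from 224 to 1419.7 CPM with a median of 787 CPM. In the other 21 libraries it ranged from 57.4 to 203 CPM with a median of 108 CPM. No calf of the 21 reached the lowest of the 9, and the same held for miR-199a-5p (38.9 to 272 CPM against 8.13 to 36.3 CPM), miR-199b (54.8 to 412 CPM against 18.5 to 47.6 CPM) and miR-214 (8.13 to 52.4 CPM against 1.33 to 7.36 CPM). The median of the 9 was 7.29 times that of the 21 for miR-199a-3p, 8.92 times for miR-199a-5p, 8.39 times for miR-199b and 7.54 times for miR-214, so the members stood higher by similar factors. Of all 476 miRNAs tested, 14 (2.94%) had every value of the 9 libraries above every value of the 21, and 0 had every value below. These were the 4 members, 7 miRNAs of the pituitary list (among them miR-200a, which made the division), miR-199c with its copied reads, miR-31 and miR-493. Since the division and the members were both taken from these values, no test was made of it. In a bulk library, more cells of a type and more RNA per cell cannot be told apart.

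The 9 libraries were then read calf by calf. In HI calf 7, where every member was at its highest, miR-199a-3p stood at 1419.7 CPM beside 1240.5 CPM of miR-200a and 47575 CPM of miR-375. In MOD calf 4 these values were 1113 CPM, 984 CPM and 25453 CPM, in MOD calf 12 1086 CPM, 902 CPM and 23507 CPM, and in HI calf 2 872 CPM, 662 CPM and 23902 CPM. HI calf 6 had 787 CPM of miR-199a-3p with 667 CPM of miR-200a, and MOD calf 9 had 469 CPM with 233 CPM. The order was not the same throughout, since HI calf 6 had slightly more miR-200a than HI calf 2. At the lower end, miR-199a-3p stood at 454 CPM in HI calf 9, 245 CPM in HI calf 14 and 224 CPM in MOD calf 2, with 164, 165 and 62.9 CPM of miR-200a. The neuronal miR-124a, with a median of 6601 CPM in the 21 libraries, stood at 826 CPM in HI calf 7, 1492 CPM in MOD calf 4, 2105 CPM in HI calf 2, 3058 CPM in HI calf 6, 3478 CPM in MOD calf 9, 3629 CPM in MOD calf 12 and 3883 CPM in HI calf 14. It was higher in MOD calf 2, at 5128 CPM, and in HI calf 9, at 7058 CPM, above that median. The summed level of the 10 miRNAs of the pituitary list was 10003 to 100739 CPM in the 9 libraries and 2289 to 7130.5 CPM in the 21, and the part of pituitary or other epithelial tissue in the high members was not tested.

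Because the libraries formed these separate sets, correlations over calves were taken within each set. They are Spearman's rho and Pearson's r on log2(CPM + 0.25), given as a description, and the values of 1 library share its scaling. Within the 9 libraries the 6 pairs of members had rho from 0.967 to 0.983 and r from 0.968 to 0.993. With the 2 farthest calves left out, r lay between 0.928 and 0.996.

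Within the 21 libraries low in miR-200a the pairs without miR-199b had the higher values. Here miR-199a-5p and miR-214 had a rho of 0.871 (r = 0.909), miR-199a-3p and miR-199a-5p a rho of 0.855 (r = 0.917), and miR-199a-3p and miR-214 a rho of 0.843 (r = 0.900). The 3 pairs with miR-199b were lower, with a rho of 0.668 with miR-199a-3p (r = 0.720), 0.577 with miR-214 (r = 0.629) and 0.488 with miR-199a-5p (r = 0.549). Leaving out the 2 farthest calves brought r of miR-199b and miR-199a-5p to 0.393, and that of miR-199a-5p and miR-214 to 0.869.

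The members were next set beside marker miRNAs of the cell types that the dissection could hold. A family score was made for each calf as the mean of the 4 members' log2 values, each standardised over the 30 calves, and a list score was made in the same way for each of 10 marker lists. In the 21 libraries low in miR-200a, the family score ran with the list of other mesenchymal miRNAs (miR-21-5p, miR-22-3p, miR-140, miR-152 and miR-574), with a rho of 0.781 (r = 0.760, and 0.737 without the 2 farthest calves). It also ran with the smooth muscle list of miR-143 and miR-145, which are made from 1 precursor transcript in contractile vessel wall cells, with a rho of 0.695 (r = 0.656, and 0.541 without the 2 farthest). With the endothelial list, the arms of miR-126, rho was 0.255 (r = 0.193), and with the pituitary list it was -0.0727 (r = 0.213).

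Of the single markers in these 21 libraries, miR-21-5p had the highest rho with the family score of all 471 miRNAs outside the family, at 0.677. Then came miR-11986b at 0.660, miR-15b at 0.608, miR-143 at 0.592 and miR-145 at 0.571. The arms of miR-126 stood at 0.160 (miR-126-3p) and 0.310 (miR-126-5p), against a median of -0.0260 for all 471. Of the other mesenchymal list besides miR-21-5p, miR-152 stood at 0.547, miR-140 at 0.543, miR-574 at 0.429 and miR-22-3p at 0.266. The last of these lay below miR-126-5p. The smooth muscle pair thus ranked 4 and 5 of the 471.

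Among the 9 libraries high in miR-200a the family score had a rho of 0.950 with the pituitary list (r = 0.937, and 0.963 without the 2 farthest calves), 0.917 with the other mesenchymal list and 0.633 with the smooth muscle list. It ran against the choroid plexus and ependyma list (rho = -0.883), the oligodendrocyte list (rho = -0.767) and the neuron list (rho = -0.750). In the 21 libraries the rho with these lists was 0.155, 0.0675 and -0.294, in the same order. Of the endothelial pair, miR-126-5p had a rho of 0.900 and miR-126-3p a rho of 0.317 in these 9 libraries. For the smooth muscle list r fell from 0.761 to 0.182 without the 2 farthest calves, so that value rests on them. For the erythroid list rho was -0.150 in the 9 and 0.0662 in the 21, with r in the 9 at -0.440 without the 2 farthest calves, and its miRNAs went both ways (miR-486 at -0.50 and -0.391, miR-451 at 0.10 and 0.191, in the same order). For the leukocyte list rho was -0.0333 and 0.408, and its miRNAs also went both ways (miR-155 at 0.467 and 0.477, miR-150 at -0.50 and -0.138). For the 1 tested miRNA of the muscle list, miR-133a, rho was 0.583 and 0.549, and its r in the 9 went from 0.714 to 0.148 without the 2 farthest calves. The sets were divided on miR-200a, itself of the pituitary list, which limits the range of that list in the 21. Without miR-200a its rho was 0.950 in the 9 and -0.0519 in the 21, though its other miRNAs vary with miR-200a. Whether the relations of the 2 sets differ was not tested.

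**Figure D2:**
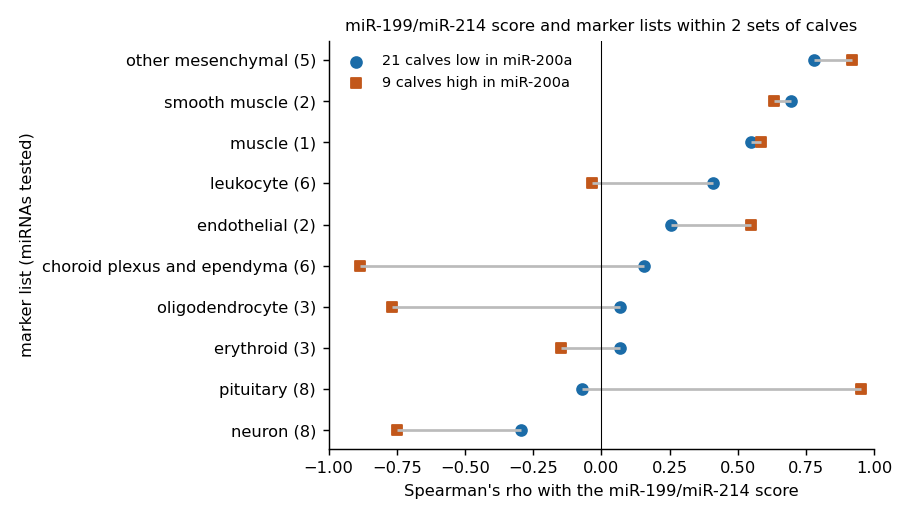
Spearman's rho between the family score and each marker list (rows, with the number of miRNAs tested) within the 21 calves low in miR-200a (circles) and the 9 calves high in it (squares). The other mesenchymal, smooth muscle, muscle and endothelial lists lie to the right of 0 in both sets. The pituitary list stands at -0.0727 in the 21 and 0.950 in the 9, which were divided on miR-200a of that list.

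The factors by which the 9 libraries stood above the 21 were set beside those of the markers. Against the factors of 7.29 to 8.92 between the medians of the members, that of miR-143 was 2.18, miR-145 1.40, miR-126-5p 1.11 and miR-126-3p 0.860, while that of miR-200a was 301 and that of miR-375 34.1. Of the other mesenchymal list it was 3.09 for miR-574, 1.91 for miR-152, 1.48 for miR-21-5p, 1.26 for miR-140 and 1.06 for miR-22-3p. In HI calf 7, picked because every member was highest there, the members stood at 13.1 times (miR-199a-3p), 15.5 times (miR-199a-5p), 14.7 times (miR-199b) and 15.4 times (miR-214) their medians in the 21 libraries. In the same calf miR-143 stood at 2.74 times, miR-145 at 1.40 times, miR-126-3p at 1.01 times and miR-126-5p at 1.49 times, with miR-200a at 564 times and miR-375 at 78.6 times. The 5 other mesenchymal miRNAs ranged from 1.35 times for miR-140 to 5.89 times for miR-574. The name of pericyte and fibroblast miRNAs therefore rests on outside knowledge, since bulk libraries do not show which cells held these miRNAs, and here all members were highest where the epithelial miR-200a was.

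**Figure D3:**
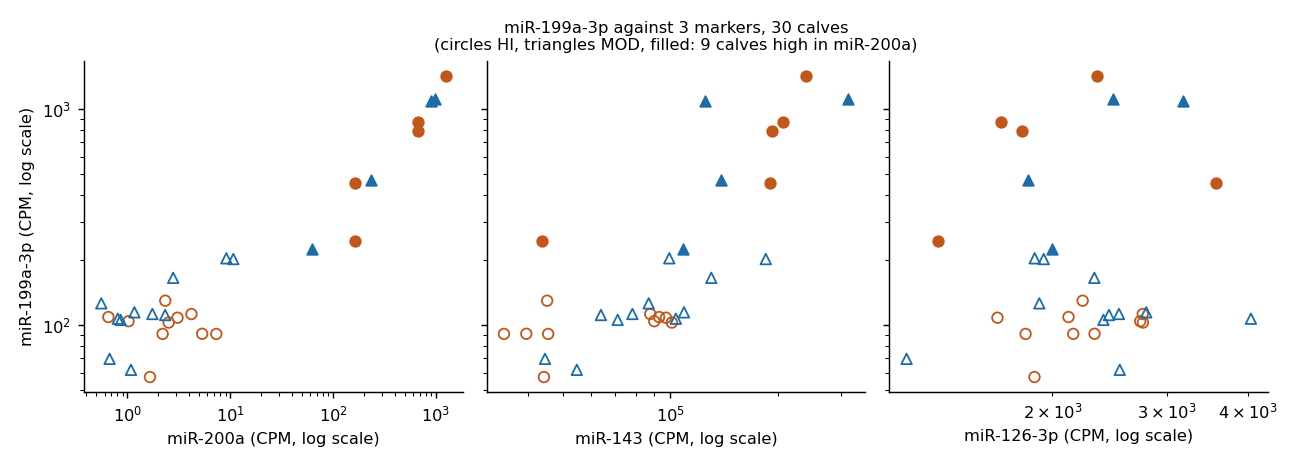
CPM of miR-199a-3p against the epithelial miR-200a, the smooth muscle miR-143 and the endothelial miR-126-3p, on log axes, with circles for HI, triangles for MOD and filled symbols for the 9 calves high in miR-200a. The filled symbols rise with miR-200a, while for miR-126-3p filled and open symbols cover much the same range.

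The miRNAs most like the family over all 30 calves were named by rank of rho with the family score. They were miR-11986b (rho = 0.853), miR-15b (0.843), miR-21-5p (0.811), miR-23a (0.792), miR-2285ci (0.782), miR-574 (0.779), miR-2285da (0.766), miR-152 (0.765), miR-182 (0.763) and miR-148a (0.762). As these values join both sets of libraries, the rank within each set differs: rho of the 10 lay between 0.733 and 0.983 in the 9 libraries and between 0.314 and 0.677 in the 21. In the 21 libraries miR-182 and miR-148a had the lowest of these, at 0.316 and 0.314, and miR-23a, which with miR-141 of the pituitary list stood at 0.983 in the 9 libraries, had 0.425. Taken singly, miR-199a-3p (rho = 0.848) and miR-199b (rho = 0.841) were most like miR-11986b, miR-199a-5p was most like miR-2285ci (rho = 0.818), and miR-214 was most like miR-574 (rho = 0.805).

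At the other end stood miR-323 (rho = -0.786), miR-95 (-0.743), miR-496 (-0.742), miR-2366 (-0.741) and miR-3957 (-0.714), which were lowest where the family was high. In the 21 libraries alone rho lay between -0.601 for miR-3957 and -0.397 for miR-2366.

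The comparison of HI with MOD asks whether the diet changed the members. A miRNA was called where its fold change exceeded 1.5 and its adjusted p was below 0.1. By limma, 0 of the 4 members and 0 of the 476 miRNAs tested were called (0%). An unadjusted p under 0.05 was reached by 21 of the 476 (4.41%), of which 13 were lower in HI (2.73%) and 8 higher (1.68%), and by 0 of the 4 members. DESeq2 called 1 miRNA, miR-2419-3p, which was not a member, and edgeR's quasi-likelihood test called 0.

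For miR-199a-3p the mean was 318 ± 400.4 CPM in HI and 285 ± 345 CPM in MOD (SD, n = 15 each). The log2 fold change was 0.01 (standard error 0.48, 95% interval -0.96 to 0.99), with an adjusted p of 0.991 from limma. For miR-199a-5p the means were 58.8 ± 79.3 CPM and 55.0 ± 68.7 CPM, and the log2 fold change was -0.15 (95% interval -1.23 to 0.93, adjusted p = 0.984 from limma). The mean of the CPM was thus higher in HI and that of the log2 values lower. For miR-199b the means were 89.7 ± 116 CPM and 71.8 ± 92.5 CPM with a log2 fold change of 0.16 (95% interval -0.81 to 1.12), and for miR-214 they were 10.7 ± 14.5 CPM and 10.3 ± 13.3 CPM with a log2 fold change of -0.12 (95% interval -1.19 to 0.94). Both had an adjusted p of 0.984 from limma. For miR-214, too, the mean of the CPM was higher in HI and that of the log2 values lower. Permutation tests of the mean log2 difference gave p from 0.752 to 0.983 for the 4 members. The intervals reach about 1 on the log2 scale to either side, so differences smaller than that are not excluded over all 30 calves.

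Without the 9 libraries high in miR-200a the spread was far smaller. The log2 fold changes of all 4 members were below 0 there, as were those of 53.8% of all miRNAs tested, and none was called. There miR-199a-3p ranged from 57.4 to 129 CPM in the 10 HI calves with a median of 103 CPM, and from 62.0 to 203 CPM in the 11 MOD calves with a median of 112 CPM. For miR-199a-5p the HI calves had 9.06 to 18.9 CPM with a median of 15.2 CPM, and the MOD calves 8.13 to 36.3 CPM with a median of 20.6 CPM. The highest values of this set, from 165 to 203 CPM of miR-199a-3p, were all in MOD calves (calves 13, 1 and 11), above every HI calf. MOD calves 1 and 11 also had the highest miR-200a of the 21, at 10.7 and 9.16 CPM, against a median of 2.20 CPM. In MOD calf 13 miR-200a stood at 2.79 CPM. The part of miR-200a in the differences within this set was not tested. For miR-199a-3p the remaining calves of the groups overlapped, while for miR-199a-5p the MOD median lay above every HI calf.

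In these 21 calves the log2 fold change was -0.27 for miR-199a-3p (95% interval -0.65 to 0.12), -0.49 for miR-199a-5p (95% interval -0.96 to -0.01), -0.11 for miR-199b (95% interval -0.44 to 0.22) and -0.43 for miR-214 (95% interval -0.97 to 0.11). Their adjusted p lay between 0.780 and 0.910 from limma. The unadjusted p was 0.0445 for miR-199a-5p, 0.163 for miR-199a-3p, 0.115 for miR-214 and 0.500 for miR-199b, where 5.25% of all miRNAs had a p under 0.05. An exact permutation test gave p = 0.0597 for miR-199a-5p (n = 10 HI and 11 MOD). With all 30 calves and the pituitary list score as a term the values were close to these, at -0.21 for miR-199a-3p, -0.40 for miR-199a-5p (unadjusted p = 0.0510, adjusted p = 0.711 from limma), -0.07 for miR-199b and -0.36 for miR-214, where 6.51% of all miRNAs had a p under 0.05.

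Within the 9 libraries high in miR-200a, the difference between 5 HI and 4 MOD calves was 0.10 for miR-199a-3p, 0.01 for miR-199a-5p, 0.23 for miR-199b and -0.02 for miR-214 on the log2 scale (exact permutation tests, p from 0.762 to 1). Whether it differs from that of the other 21 was not tested.

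**Figure D4:**
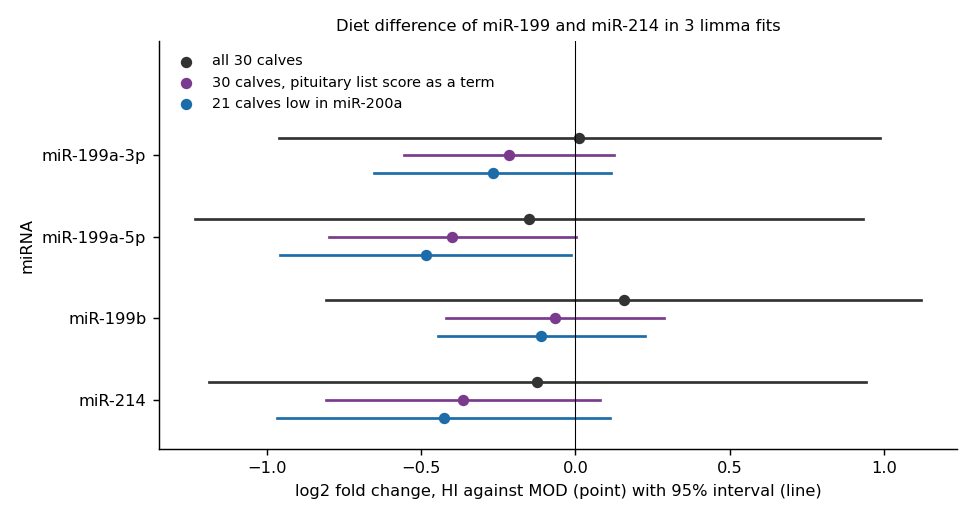
Log2 fold change of HI against MOD for each member (points) with its 95% interval (lines) from limma, over all 30 calves, over 30 calves with the pituitary list score as a term, and over the 21 calves low in miR-200a. The intervals shrink in the last 2 fits, and the points of all members lie below 0 there.

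Reads per library and animal codes also differed between the diets. In the 21 shallower libraries (12 HI and 9 MOD, up to 8988039 reads) the log2 difference lay between -0.15 for miR-214 and 0.32 for miR-199b, and in the 9 deeper libraries (3 HI and 6 MOD, at least 17193358 reads) between -0.20 for miR-199b and -0.10 for miR-214. Among the 9 lowest animal codes (7 HI and 2 MOD), a class whose limit earlier work had set on values of these data, it was 0.14 for miR-214 to 0.69 for miR-199b. In the other 21 (8 HI and 13 MOD) it was -0.69 for miR-199a-5p to -0.39 for miR-199b. No exact permutation test within these classes had a p under 0.2, the lowest being 0.278 for miR-199a-5p in the calves with higher codes.

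Of the vessel markers, miR-145 had 572 ± 194 CPM in HI and 789 ± 252 CPM in MOD (SD, n = 15 each), a log2 fold change of -0.46 with an unadjusted p of 0.00797 and an adjusted p of 0.878 from limma. For miR-143 the log2 fold change was -0.27 and for the arms of miR-126 it was -0.09 (miR-126-3p) and -0.07 (miR-126-5p), with adjusted p of 0.982 from limma for each. Over the 21 libraries low in miR-200a the values were -0.55 for miR-145 (unadjusted p = 0.000562, adjusted p = 0.267 from limma), -0.47 for miR-143, -0.04 for miR-126-3p and -0.06 for miR-126-5p. In the other mesenchymal list 0 of 5 miRNAs passed the thresholds and 4 of 5 lay lower in HI, with a median log2 fold change of -0.02, beside 50.6% lower in HI and a median of -0.00 among all 476. Over the 21 libraries 4 of 5 again lay lower, with a median of -0.08 beside 53.8% lower and a median of -0.01 among all 476. In no list did any miRNA pass the thresholds, over all calves or over the 21. In the pituitary list the 8 miRNAs tested of the 10 had a median log2 fold change of 0.64 and none was lower in HI, while over the 21 libraries the median was 0.20 and 3 of 8 were lower. Of the neuron list, with the identical rows of miR-124a and miR-124b counted once, 7 of 7 were lower in HI over all calves (median -0.15) and 4 of 7 over the 21 (median -0.03). Of the choroid plexus and ependyma list 5 of 6 were lower over all calves (median -0.39) and 6 of 6 over the 21 (median -0.19), and of the oligodendrocyte list 0 of 3 were lower in either (medians 0.12 and 0.40). In the leukocyte list 4 of 6 were lower over all calves and 2 of 6 over the 21, in the erythroid list 0 of 3 and 1 of 3, and miR-133a of the muscle list was lower in both. The part of these cell types in the members' values was not tested.

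Ratios between members were compared because they do not depend on how a library is scaled. The ratio of miR-199a-3p to miR-199a-5p, whose reads may come from more than 1 precursor, ranged from 4.48 to 8.44 in HI with a median of 6.33, and from 4.03 to 7.62 in MOD with a median of 5.61. The MOD median was exceeded in 10 of 15 HI calves, and the HI median in 3 of 15 MOD calves. The mean log2 ratio was 0.16 higher in HI (permutation test, p = 0.0855, adjusted over the 3 ratios p = 0.128). The ratio of miR-199b to miR-199a-5p ranged from 0.995 to 3.18 in HI with a median of 1.65, and from 0.916 to 2.65 in MOD with a median of 1.31. Its mean log2 was 0.31 higher in HI (permutation test, p = 0.0703, adjusted p = 0.128), with the MOD median exceeded in 12 of 15 HI calves. The ratio of miR-214 to miR-199a-3p, with medians of 0.0316 in HI and 0.0361 in MOD, was 0.14 lower in HI on the log2 scale (permutation test, p = 0.182, adjusted p = 0.182). None of the 3 differences passed an adjusted p of 0.1, and the groups overlapped for each. With the animal code class as a term, the first and second ratio had an adjusted p of 0.0899, and with the miR-200a class as a term one of 0.0653 (permutation within classes), so these fits change the call.

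By depth, the log2 differences of the 3 ratios in the 21 shallower libraries were 0.20 (exact permutation test, p = 0.0471), 0.44 (p = 0.0220, exact) and -0.23 (p = 0.0339, exact), in the order given. In the 9 deeper libraries they were 0.05, -0.02 and 0.02 (exact permutation tests, p from 0.845 to 0.964). Within the 21 libraries low in miR-200a they were 0.22 (exact permutation test, p = 0.0434), 0.38 (p = 0.0855, exact) and -0.16 (p = 0.248, exact), and within the 9 high ones 0.09, 0.22 and -0.13 (exact permutation tests, p from 0.119 to 0.397). Among the lowest animal codes they were 0.17, 0.48 and -0.25, and in the others 0.21, 0.30 and -0.07 (exact permutation tests, p from 0.0888 to 0.601). The p-values of this paragraph are not adjusted.

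**Figure D5:**
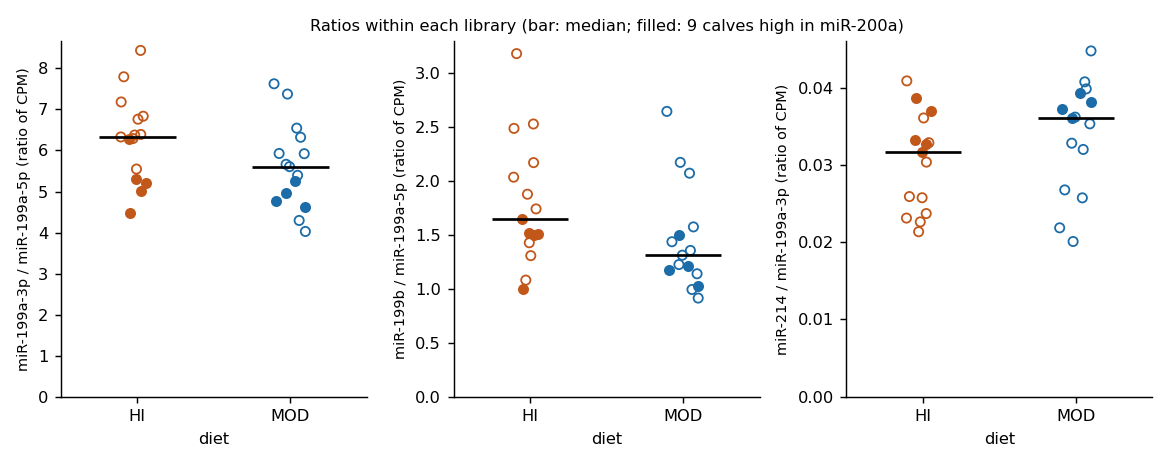
Ratio of CPM between members in each library by diet, for miR-199a-3p over miR-199a-5p, miR-199b over miR-199a-5p and miR-214 over miR-199a-3p, with bars at the medians and filled symbols for the 9 calves high in miR-200a. The medians of HI are 6.33, 1.65 and 0.0316 and those of MOD are 5.61, 1.31 and 0.0361, with the groups overlapping in every panel.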

How the data were processed

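Small RNA was sequenced from the ARC of 30 calves, with 1 library per calf, and diets were taken from the sample labels. The authors trimmed reads with Cutadapt, kept reads of 15 to 28 bases, removed other short RNAs and counted known bovine miRNAs with miRDeep2 and Bowtie on ARS-UCD1.2. The deposited signal values, 1 per calf for each mature miRNA, have the form of CPM over TMM-scaled library sizes. How they were normalized is not given in the sources used here. Library totals of these values ran from 825695 to 1429908.

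Reads were recovered by dividing by the value of 1 read. Of the values under 200 reads, 94.5% to 97.9% came out whole, within 0.02 of a read, and they were rounded for the filter and the count tests. In 1 library, HI calf 6, fewer than 95% of the low values were whole (94.8% of those up to 20 reads, within 0.1 of a read), so the count tests used the other 29. A floor of 3 reads is worth 0.138 to 0.558 CPM.

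Diets were compared on log2(CPM + 0.25) with limma (lmFit and eBayes with a trend) over the 476 miRNAs kept by edgeR's filterByExpr, with Benjamini-Hochberg adjustment and the thresholds used in the study. Permutation tests were two-sided with 100000 resamples, or exact within classes of libraries. The members, marker lists, ratios and the rule for named miRNAs (members, vessel markers, the 10 most and 5 least alike over the calves, and the most alike of each member) were chosen with earlier results of these data known. Fold changes of miRNAs with few reads are understated by the pseudocount. Code was tested on simulated counts. No miRNA sequence was among the files used here. Alternatives were other pseudocounts, scalings and filters, edgeR's quasi-likelihood test, DESeq2, class terms and leaving out each calf; the division by miR-200a and the pituitary list term were added after the values had been seen. Software was R 4.3.3, limma 3.58.1, edgeR 4.0.16, DESeq2 1.42.0, Python 3.11.15 and scipy 1.17.1.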

Additional observations from a re-analysis of the deposited data

How the results depend on the processing

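No member passed the thresholds of the diet comparison under any of the 14 alternatives or in any of the 30 fits that left out 1 calf. The direction was less stable, as the log2 fold changes are small. For miR-199a-3p (0.01) it turned under library size only (-0.031), DESeq2's Wald test (-0.56), the animal code class as a term (-0.27), without the 9 libraries high in miR-200a (-0.27) and when the score of the pituitary list was a term (-0.21). For miR-199b (0.16) it turned under DESeq2 (-0.017), the animal code class (-0.13), without the 9 libraries (-0.11) and with the pituitary score (-0.067). The direction of the log2 fold change of miR-199a-5p and miR-214, lower in HI, was the same under all 14, with DESeq2 giving -0.69 and -0.75. DESeq2 and edgeR used the 29 libraries without HI calf 6, unlike the main fit. On these 29, edgeR gave 0.021 for miR-199a-3p and 0.17 for miR-199b, and limma gave -0.14 and -0.0015. The cause of these shifts was not tested. Leaving out 1 calf gave -0.20 to 0.20 for miR-199a-3p, -0.38 to 0.045 for miR-199a-5p, -0.060 to 0.36 for miR-199b and -0.35 to 0.076 for miR-214. The count of miRNAs past the thresholds was 0 except under DESeq2 and without HI calf 11 or MOD calf 15, where it was 1, each time miR-2419-3p. No paired analysis was possible because each calf had 1 diet and the labels give no number that pairs calves.

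The ratio of miR-199a-3p to miR-199a-5p passed an adjusted p of 0.1 with the animal code class as a term (0.20, adjusted p = 0.0899, permutation within classes) or the miR-200a class as a term (0.18, adjusted p = 0.0653), as did that of miR-199b to miR-199a-5p (0.35 and 0.33, with the same adjusted p). Leaving out 1 calf gave 0.13 to 0.19, 0.24 to 0.37 and, for miR-214 to miR-199a-3p, -0.18 to -0.11, and brought the adjusted p under 0.1 in 4, 4 and 2 of the 30 fits, with the lowest at 0.0549. For the first and second ratio these were the fits without HI calf 9 (0.19 and 0.36), MOD calf 3 (0.18 and 0.35), MOD calf 5 (0.19 and 0.35) or MOD calf 10 (0.19 and 0.37), and for the third ratio those without MOD calf 5 (-0.18) or MOD calf 10 (-0.17). The lowest rho of the 6 pairs of members, 0.824 over all calves, was 0.488 within the 21 libraries low in miR-200a and 0.967 within the 9 high in it. Of the 10 most alike miRNAs, 6 remained among the 10 under library size only, 4 with depth and code class means removed, 4 within the 21 libraries and 2 within the 9. The rho with the pituitary list over all calves was 0.631, and 0.738 under library size only, whereas with the endothelial list it turned from 0.247 to -0.334. Depth limits miR-214 most, with 12 reads in its lowest library.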
